A study of Mus musculus with 10 samples.

Results

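Neurites of cortical neurons lacking Cpeb1 were compared 24 hours after they had been scraped off with neurites left intact. The comparison took in every gene with a deposited value of at least 1 in at least 2 of the 4 knockout libraries, which held for 13362 of 45195 gene IDs. Of these genes 11995 were protein coding, 352 were pseudogenes and 1015 were of other types. The deposited values are FPKM, fragments per kilobase of transcript scaled to sequencing depth, which the authors appear to have divided by a further factor for each library, and gene values below are on this scale. A value of at least 1 in all 4 knockout libraries was found for 10262 genes. A further 182 genes lay below 1 in both naive libraries and 374 lay below 1 in both injured libraries, so that these entered through 1 group only. The gene nearest inside the limit was Man1c1, at 0.509 and 2.30 in naive and 1.00 and 0 in injured neurites, and the nearest outside was Sec14l2, at 0.133 and 0.997 against 0.433 and 1.35.

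The neurons came from the cortex of E16.5 mouse embryos and were kept for 8 days on membranes with 3 µm pores, through which axons and dendrites grow while cell bodies stay above. The knockout neurons carried floxed Cpeb1 on both alleles (Cpeb1 flox/flox, C57BL/6 background), and the wild-type neurons were C57BL/6. All cultures, wild type included, received an AAV2 virus at plating that expresses Cre recombinase from the ubiquitous CAG promoter, so that Cre was not limited to 1 cell type. Injured neurites were scraped from the underside on day 7, and what had regrown was lysed 24 hours later beside intact neurites of the same culture age, after the cell bodies had been wiped off. Regrown neurites are also younger than intact ones, and injury and neurite age cannot be told apart in this design. There were 2 naive and 2 injured knockout libraries, and 3 of each in wild type. Whether replicates came from separate cultures is not in the labels, and each p-value therefore reflects no more than the scatter of these libraries, which may be technical.

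Cpeb1 is an RNA-binding protein that recognises a short uridine-rich element in the 3' ends of mRNAs and controls their polyadenylation and translation in the cytoplasm. Axons hold mRNAs and translate part of them on site, and severed axons draw on this local supply when a new growth cone forms. Immediate early genes such as Fos and Jun encode transcription factors that are switched on within minutes to hours of a stimulus, and injured neurons are known to express many of them during regrowth.

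The knockout libraries were estimated to hold 25.7 and 21.7 (naive) and 27.0 and 28.0 (injured) × 1e6 fragments, against 21.5 to 26.3 in wild type, and 13128, 13108, 12495 and 12747 genes reached a value of 1. Replicates correlated at 0.927 (naive) and 0.902 (injured) over log2(value + 1). No knockout library stood apart, and the lowest mean correlation with the others, 0.839, was that of wild-type injured replicate 3. Defining neuronal markers were high in all 4 knockout libraries: the tubulin gene Tubb3 had values of 1256 and 1137 in naive and 1291 and 927 in injured neurites, and Mapt, which encodes tau, had 646 and 603 against 448 and 448. Astrocyte markers were present too, with summed values over 20 genes of 6240 and 4875 in naive and 5527 and 5770 in injured libraries, so the material was not purely neuronal. In such bulk samples fewer cells of a type and less RNA per cell cannot be told apart. Cpeb1 itself, for which the sources used here name no deleted exons, had values of 5.97 and 0.356 in naive and 1.14 and 3.15 in injured knockout neurites. Wild-type values were 7.16, 5.96 and 5.86 in naive and 1.65, 13.8 and 22.6 in injured neurites, so naive replicate 1 of the group labelled knockout lay within the naive wild-type range. A value over the whole gene can include exons that were not deleted, so it does not settle the label, and the groups are called knockout here as the labels have it. Without that library 0 genes were called, and the medians of the early genes and interneuron markers described below were 1.17 and −1.95, against 1.11 and −1.58 with it. The knockout groups overlapped, and the injury difference was −0.046 ± 1.00 (log2, SE; adjusted p = 1.00).

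A small number of genes passed the test. With limma on log2(value + 1) over 15712 genes and Benjamini-Hochberg adjustment at 0.05, 4 genes rose with injury in knockout neurites, 0.0255% of those tested, and 5 fell, 0.0318%. All 9 were among the 13362 genes described, and none of the 2350 other tested genes was called. The genes that rose were the stress and growth arrest gene Gadd45g, the orphan nuclear receptor gene Nr4a1, the AP-1 subunit gene Junb and a small RNA gene of the scaRNA class, Gm22767, which was at 0 in all other groups. Those that fell were Sst, the precursor of the interneuron peptide somatostatin, Pcp4, which encodes a small calmodulin regulator, and 3 pseudogenes that are nuclear copies of mitochondrial sequence, Gm10925, Gm28661 and Gm11410. The unnamed gene models and pseudogenes were chosen for description after their values were seen.

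These calls rest on 2 libraries a group. With so few, the naive and injured libraries of a gene often lie apart without any effect of injury. The share of all genes that did so is not given here. Statements below that groups did not overlap are therefore descriptions and lend no support. At an unadjusted p under 0.05 the fit gave 264 higher genes (1.68% of those tested) and 636 lower ones (4.05%), of which 262 and 628 were among the genes described. The median log2 fold change was −0.095 over the genes described and −0.087 over all tested, 5696 of the genes described (42.6%) lay above 0, and their 5th and 95th percentiles were −1.30 and 1.04. List counts below are to be read against these shares. Under median-ratio scaling the median of all tested genes came to −0.0056, and the unadjusted counts to 376 higher and 516 lower. All 9 calls were lost when knockout naive replicate 1, knockout naive replicate 2, knockout injured replicate 2 or wild-type injured replicate 1 was left out, each of which left 0 genes called. Without wild-type injured replicate 3 the counts were 5 and 15. With the 4 knockout libraries fitted alone none passed, while 362 and 716 had an unadjusted p under 0.05.

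**Figure D1:**
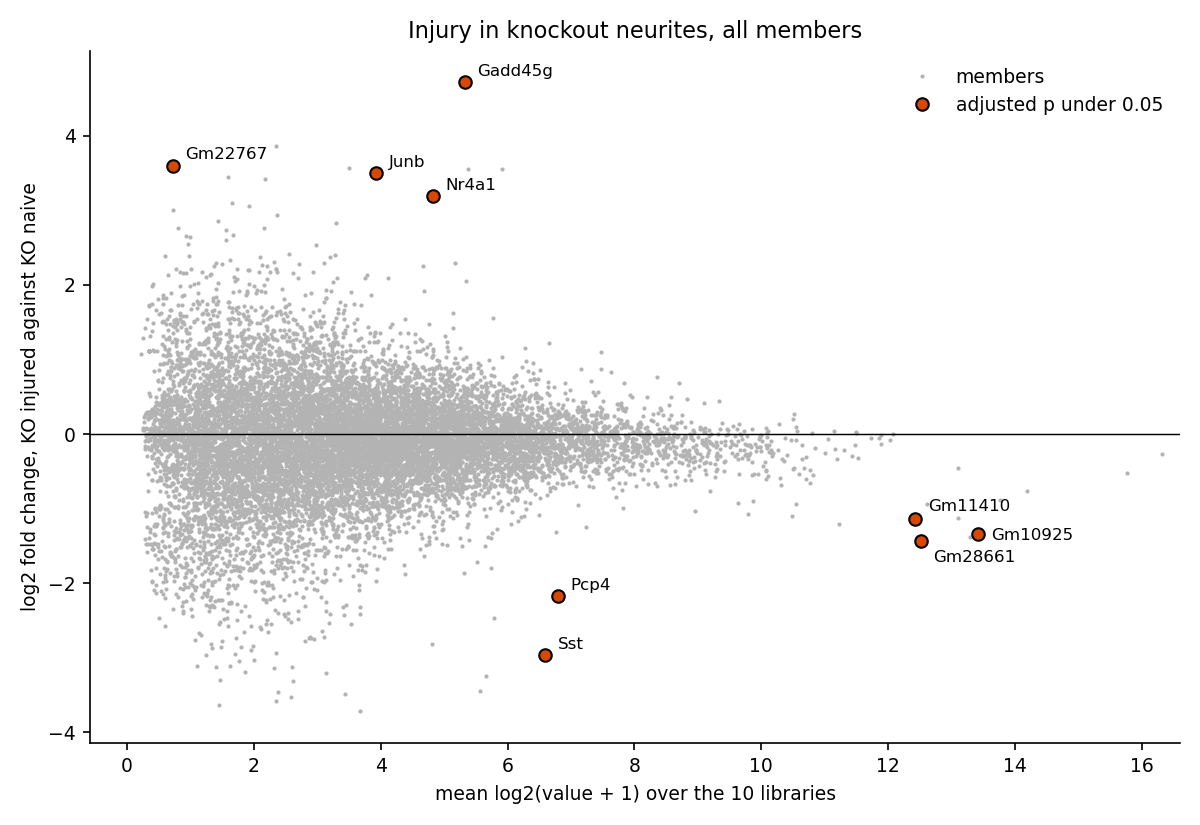
Log2 fold change of injury in knockout neurites (vertical axis) against the mean log2(value + 1) over the 10 libraries (horizontal axis), with 1 point for each of the 13362 genes and the 9 genes with an adjusted p under 0.05 in orange. The called pseudogenes sit at the high end of expression with fold changes between −1.44 and −1.14, and Gadd45g stands highest at 4.72.

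Gadd45g (ENSMUSG00000021453, chr13:51846678-51848468, plus strand, mm10), a stress-induced gene that also acts in DNA demethylation, had values of 3.94 and 3.26 in naive and 70.8 and 203 in injured knockout neurites. Both injured libraries lay far above both naive ones, at a log2 fold change of 4.72 ± 0.53 (SE; adjusted p = 0.0123). In wild type the difference was 5.10, from 16.0, 6.83 and 5.92 to 378, 218 and 448. The difference between the genotypes in this response, the interaction, was −0.38 ± 0.69 (adjusted p = 0.954). The call was lost in 4 of the 10 fits that left out 1 library, with adjusted p-values of 0.0581 to 0.273.

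Nr4a1 (ENSMUSG00000023034, chr15:101254269-101274795, plus strand) was at 8.66 and 3.52 in naive and 39.7 and 88.2 in injured knockout neurites, a rise of 3.19 ± 0.46 (adjusted p = 0.0322). Wild-type libraries went from 4.13, 3.74 and 4.13 to 288, 182 and 319, so that every injured wild-type library lay above both injured knockout libraries. The interaction was −2.49 ± 0.60 with an unadjusted p of 0.00114 and an adjusted p of 0.661. Junb (ENSMUSG00000052837, chr8:84974484-84978718, minus strand) had 3.85 and 2.47 in naive and 28.1 and 72.8 in injured knockout neurites, a rise of 3.50 ± 0.55 (adjusted p = 0.0475). Prdx2 overlaps 7.52% of its exon bases, and such libraries keep no strand. Its wild-type values went from 1.95, 0.937 and 1.13 to 117, 72.3 and 178, and the interaction of −2.15 did not pass (adjusted p = 0.791). Gm22767 was at 0 in both naive and at 12.6 and 9.84 in both injured knockout libraries and at 0 in every wild-type library. It entered the test only through the injured knockout libraries where it was high, so its call (adjusted p = 0.0322) carries no weight, and the adjusted p was 0.448 when genes had to reach 5.

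Promoter sequences of the called genes with a known protein product are shown, apart from that of Pcp4, which was searched as well. cAMP and calcium signals reach many early genes through a short element, the cAMP response element or CRE. Its letters are TGACGTCA or the shorter TGACG. Each sequence is the RefSeq window of 250 bases before to 50 bases after the start on the gene's strand (GRCm38.p6). Matches to either form on either strand are in capitals. The Nr4a1 window lies inside the annotated gene, at a downstream start.
Gadd45g, chr13:51846425-51846724, plus strand: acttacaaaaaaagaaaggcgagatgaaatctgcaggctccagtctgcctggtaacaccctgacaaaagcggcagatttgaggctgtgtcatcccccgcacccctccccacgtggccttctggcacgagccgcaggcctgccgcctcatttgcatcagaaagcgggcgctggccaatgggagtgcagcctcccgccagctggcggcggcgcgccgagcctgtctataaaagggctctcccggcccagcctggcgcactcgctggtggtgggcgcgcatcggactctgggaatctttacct
Nr4a1, chr15:101266596-101266895, plus strand: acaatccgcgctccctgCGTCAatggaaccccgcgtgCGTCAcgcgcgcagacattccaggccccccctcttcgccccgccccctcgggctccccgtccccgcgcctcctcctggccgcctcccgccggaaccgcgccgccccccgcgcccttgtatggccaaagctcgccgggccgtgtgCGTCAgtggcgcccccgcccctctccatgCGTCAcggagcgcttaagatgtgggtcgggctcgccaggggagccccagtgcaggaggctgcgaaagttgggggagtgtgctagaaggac
Junb, chr8:84978699-84978998, minus strand: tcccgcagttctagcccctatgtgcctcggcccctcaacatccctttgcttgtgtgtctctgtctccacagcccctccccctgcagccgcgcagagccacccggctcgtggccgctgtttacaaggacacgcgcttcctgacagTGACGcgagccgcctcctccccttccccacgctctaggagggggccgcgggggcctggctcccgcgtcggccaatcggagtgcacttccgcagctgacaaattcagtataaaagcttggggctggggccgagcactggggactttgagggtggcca
Sst, chr16:23890795-23891094, minus strand: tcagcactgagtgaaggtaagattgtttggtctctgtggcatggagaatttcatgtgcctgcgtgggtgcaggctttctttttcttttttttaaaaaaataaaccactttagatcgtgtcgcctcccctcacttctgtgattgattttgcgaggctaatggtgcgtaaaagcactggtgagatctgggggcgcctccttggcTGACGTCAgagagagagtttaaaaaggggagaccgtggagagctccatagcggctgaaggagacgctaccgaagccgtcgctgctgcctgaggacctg

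Nr4a1 held 4 copies of the shorter form, read as CGTCA on the printed strand, and Junb held 1. Sst, which fell, held the only full form of the 4, and Gadd45g, with the largest fold change, held none, nor did Pcp4. Over 32851 RefSeq promoters of the same length the full form occurred in 1.79% and the shorter one in 20.8%, and the full form contains the shorter one on both strands. Of the immediate early genes described next, 20 had a promoter in the table and 15 of them held the shorter form, among them Fos, Fosb, Npas4 and Atf3. The shorter form was also in 11 of 17 promoters of activity effector genes and in 6 of 15 of interneuron markers, described below, most of which lay lower. The shorter form was thus not limited to lists that lay higher, and whether its share differs between the lists was not tested. The AP-1 letters TGANTCA, found in 7.81% of promoters, and the CArG box, found in 1.63%, were in none of the 5 called genes' windows. These are matches of letters and show nothing of what binds there.

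Immediate early transcription factor genes lay mostly on the higher side. Of the 28 measured, 2 rose (Nr4a1 and Junb), where 0.0255% of all tested genes did. On the higher side 11 had an unadjusted p under 0.05 and on the lower 0, against 1.68% and 4.05% of all tested genes. Of the 28, 23 lay above 0, against 42.0% of all tested genes. The median log2 fold change was 1.11 against −0.087 over all tested genes. Fos, the partner of Jun proteins in AP-1, had values of 10.9 and 17.4 in naive and 88.8 and 340 in injured knockout neurites (3.56 ± 0.58, adjusted p = 0.0551), with no overlap of the groups. Jun had 12.1 and 10.8 against 40.9 and 87.3 (2.30 ± 0.40, adjusted p = 0.0874), with 7.28% of its exon bases overlapped by Junos. Neither passed the threshold, but Fos did in 8 of 14 other settings and in 2 of 10 fits without 1 library, with adjusted p-values of 0.0168 to 0.661 over all of them. Atf3, a stress-induced factor known from regenerating sensory neurons, was listed at 0 in both naive and at 13.0 and 7.21 in the injured libraries, and its adjusted p was 0.336. Atf3 is counted among the genes described only through the injured knockout libraries where it was high, so its rise carries no weight here. The counts of 11 and 23 and the median above include it.

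Among the other early factors the levels differed widely. Nr4a2, a relative of Nr4a1, had values of 18.3 and 10.5 in naive and 40.9 and 90.6 in injured neurites, and Egr1, a zinc finger factor, had 4.58 and 5.27 against 11.1 and 37.1. Npas4, which is induced by calcium entry in neurons, had 4.52 and 1.26 against 11.4 and 23.4 (adjusted p = 0.562). In each of these 3 genes both injured libraries exceeded both naive ones. Crem, whose short products repress cAMP-driven transcription, was the lowest of the list at −0.42, with 32.0 and 39.7 in naive and 14.4 and 48.0 in injured libraries that lay on either side of them. Jund, the AP-1 member that is expressed without a stimulus, was at 10.5 and 13.6 against 8.99 and 13.5. Nr4a2, Egr1, Crem and Jund were named after their values were seen.

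Injured replicate 2 exceeded injured replicate 1 in 25 of the 28 early genes, against 51.0% of all genes described. The list's median difference from the naive mean was 0.65 in replicate 1 and 1.33 in replicate 2. Summed values of the list were 271 and 215 in naive and 477 and 1142 in injured libraries, so both injured libraries lay above both naive ones but differed by more than the naive libraries did. Without injured replicate 2 the median over the genes of the list was 0.65, without naive replicate 2 it was 0.69, and over all 24 other settings it ranged from 0.53 to 1.78.

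**Figure D2:**
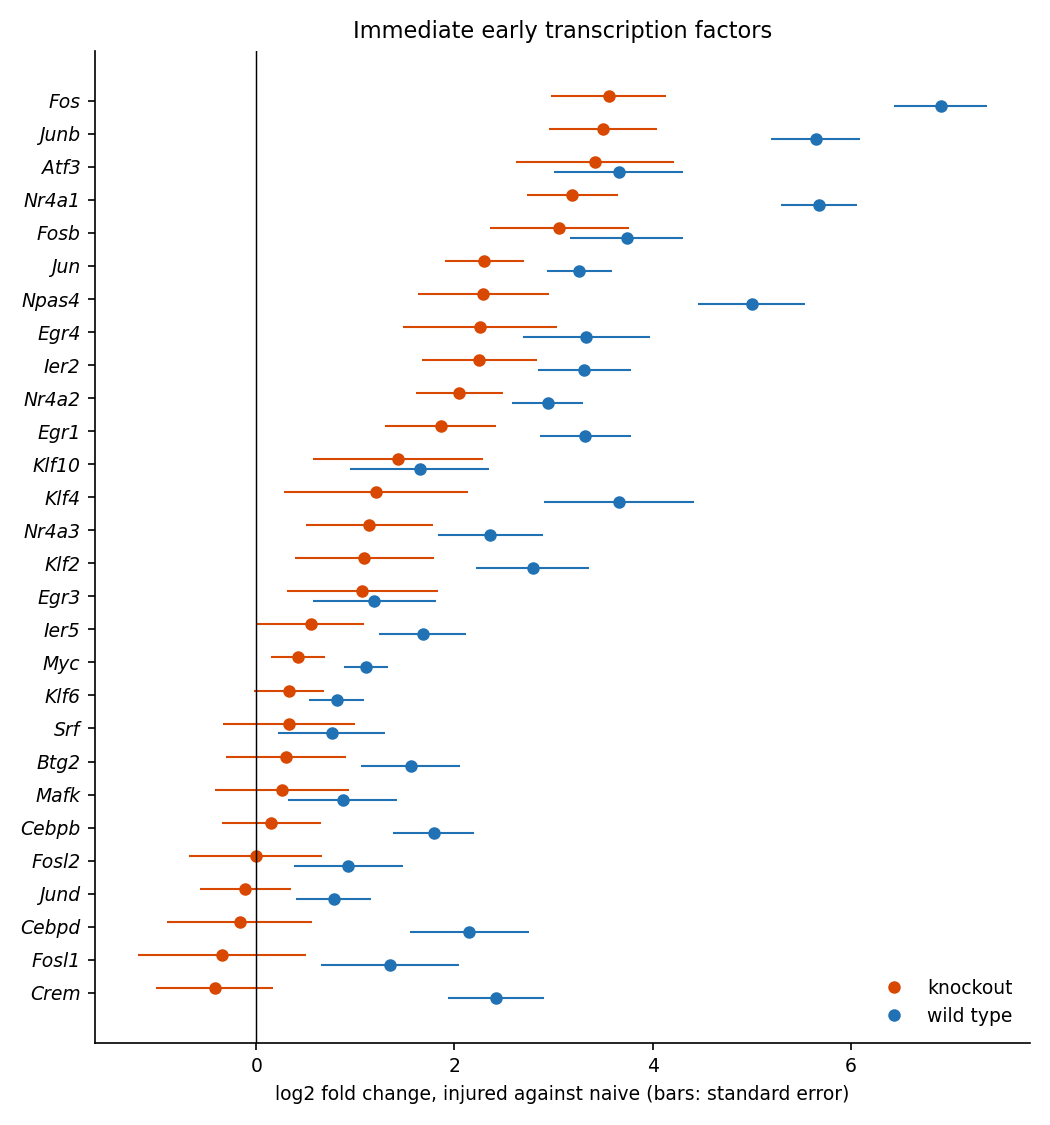
Log2 fold change of injury for each of the 28 immediate early transcription factor genes (horizontal axis) in knockout (orange) and wild-type (blue) neurites, with bars of 1 standard error. In every gene the knockout point lies to the left of the wild-type point, and the bars of both genotypes overlap in several genes, such as Atf3 and Fosb.

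The wild-type fold change was the larger one in 28 of 28 early genes, where 56.4% of all genes described had a negative interaction. The wild-type median was 2.39, and 7 of the 28 interactions had an unadjusted p under 0.05, against 979 of 15712 genes (6.23%) in either direction. Of the 28 genes, 15 were themselves called higher in wild type, and the list was chosen with earlier results of these data known. Such a choice favours a larger wild-type change, so these counts are descriptions and no finding. No interaction passed the adjusted threshold over all genes, 0 of 15712 (0%), and the smallest adjusted p was 0.457. Wild-type injury itself gave 149 calls (0.948%), more than the 9 in knockout neurites, with 1 more library in each group. For Fos the interaction was −3.35 ± 0.74 (unadjusted p = 0.000608, adjusted p = 0.595). Its naive values differed by genotype as well: 2.11, 1.23 and 4.34 in wild type lay below 10.9 and 17.4 in knockout, while injured wild type had 478, 267 and 501.

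Effector genes of neuronal activity include those for secreted proteins and kinases. Of 24 measured, 1 rose (Gadd45g), 19 lay above 0 and the median was 0.46 (wild type 1.54). Gadd45b, a relative of Gadd45g, had values of 1.95 and 0.602 in naive and 16.0 and 38.1 in injured neurites (3.57 ± 0.65, adjusted p = 0.104). Plk2, a synaptic kinase, had 157 and 117 against 210 and 294, and Scg2, a secretory granule protein, had 36.9 and 42.6 against 55.5 and 93.8. In all 3 genes the groups did not overlap. Arc, which encodes a synaptic capsid-like protein and was picked after its values were seen, had 3.49 and 4.04 in naive and 0 and 2.58 in injured knockout neurites. In wild type it went from 0.273, 1.50 and 0.679 to 17.3, 11.3 and 13.9, and the interaction was −4.42 ± 0.94 (unadjusted p = 0.000439, adjusted p = 0.529). Bdnf, a neurotrophin gene, had 5.55 and 3.37 against 7.87 and 9.30.

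Feedback inhibitors of MAP kinase signalling, which early signals induce and which then shut the pathway down, gave 0 calls among 18 genes. Of these 12 lay above 0 and 4 had an unadjusted p under 0.05, all higher, and the median was 0.75 (wild type 0.99). Dusp14, a phosphatase gene, had means of 14.8 ± 2.39 in naive and 42.8 ± 5.45 in injured neurites (SD, n = 2 each), with both injured libraries higher (log2 fold change 1.47 ± 0.39, adjusted p = 0.460). Dusp6, which acts on ERK, had 20.5 and 10.4 against 32.3 and 33.2. Over the settings tried the median of this list ranged from 0.39 to 1.05.

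**Figure D3:**
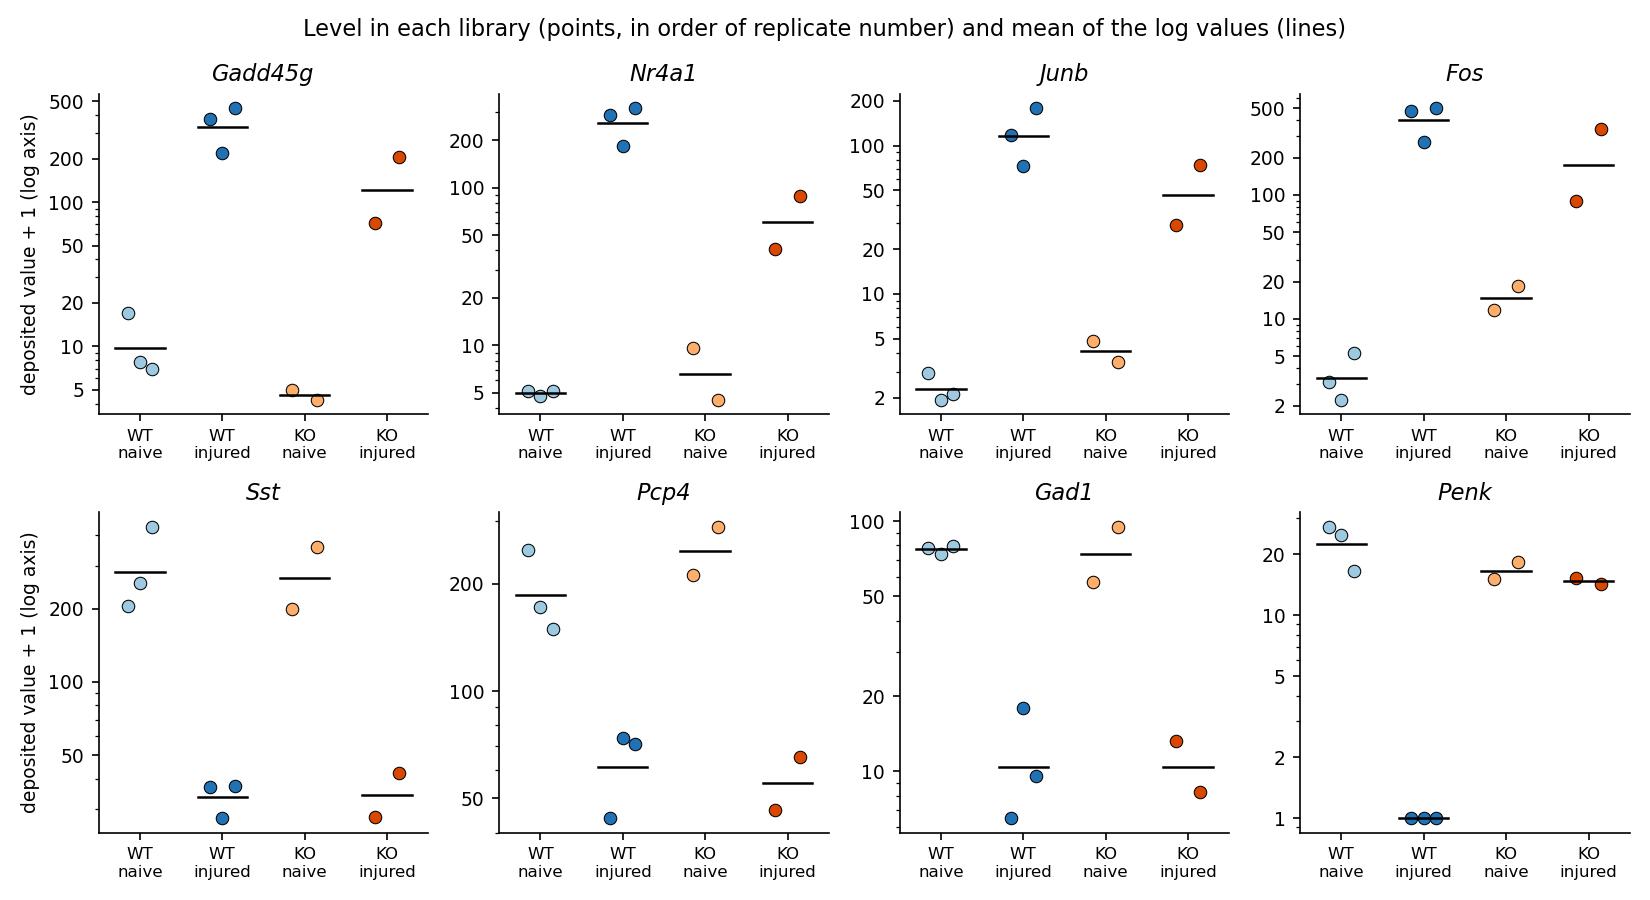
Deposited value plus 1 (vertical axis, log scale) in each library of the 4 groups for 8 genes, with points in order of replicate number and lines at the mean of the log values. Gadd45g, Nr4a1, Junb and Fos are higher in all injured libraries of both genotypes, Sst, Pcp4 and Gad1 are lower, and Penk is at 0 in injured wild type but between 13.3 and 17.2 in all 4 knockout libraries.

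Interneuron genes lay on the lower side after injury. Of 24 markers measured, 1 fell (Sst), where 0.0318% of all tested genes did. On the lower side 13 had an unadjusted p under 0.05 and on the higher 0, against 4.05% and 1.68% of all tested genes. Of the 24, 22 lay below 0, where 42.0% of all tested genes lay above it. The median log2 fold change was −1.58 (wild type −1.74). Sst (ENSMUSG00000004366, chr16:23889573-23890958, minus strand) had values of 198 and 358 in naive and 26.9 and 41.0 in injured knockout neurites, a fall of −2.97 ± 0.38 (adjusted p = 0.0237). The wild-type change was −3.08, and the interaction was 0.11 ± 0.49. Summed over the list the values were 667 and 1131 in naive and 122 and 213 in injured libraries, so that the naive libraries differed among themselves but lay well above both injured ones.

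Genes for making GABA, the transmitter of these cells, lay lower as well. Gad1, which makes GABA from glutamate, had 56.3 and 94.1 in naive and 12.2 and 7.27 in injured neurites (−2.82 ± 0.46, adjusted p = 0.0559). Gad2, the other such enzyme, had 11.9 and 24.0 against 0.361 and 4.34. In these genes both injured libraries lay below both naive ones. The vesicular transporter gene Slc32a1 was too low to be among the genes described, with 0.553 and 2.83 against 0.171 and 0.709. Npy, a neuropeptide gene of interneurons, had 152 and 295 against 9.11 and 36.6 (−3.45 ± 0.88, adjusted p = 0.433), and Lhx6, a transcription factor of interneurons from the medial ganglionic eminence, had 7.01 and 20.6 against 1.69 and 1.09. Dlx1, a homeobox gene of the same lineage, had 38.6 and 30.1 against 4.79 and 7.93, with 6.21% of its exon bases overlapped by Dlx1as. Nxph1, a neurexin ligand, was the lowest of the list at −3.72, from 36.4 and 60.6 to 0.135 and 10.8. Gad2, Slc32a1 and Lhx6 were named after their values were seen.

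Penk, the enkephalin precursor gene, departed from this pattern. It had values of 14.1 and 17.2 in naive and 14.3 and 13.3 in injured knockout neurites, a difference of −0.16 ± 0.53, while wild type went from 26.3, 23.8 and 15.5 to 0 in all 3 libraries. The interaction of 4.32 ± 0.69 had the smallest p of all tested genes, 2.91e-05, and an adjusted p of 0.457. With wild-type injured libraries listed at 0 its size depends on the pseudocount, at 7.57 with 0.1 and 2.27 with 5. It passed in 2 of 23 other settings, with no filter and with no trend, at an adjusted p as low as 0.0440. Vip, an interneuron peptide gene with values of 0 and 1.80 in naive and 2.09 and 0 in injured knockout libraries, lay at 0.072.

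Markers of 2 other cell types also had medians below 0, −1.60 for microglia and −0.74 for vascular and meningeal cells, with 0 calls in each. Over all genes described 42.6% lay above 0. The vascular and meningeal median difference from the naive mean was −1.15 in injured replicate 1 and 0.14 in replicate 2. Without injured replicate 1 that median turned positive, at 0.14. For microglia markers the 2 injured libraries were at −1.96 and −0.43. Of 7 measured microglia and macrophage markers 0 passed and 6 lay below 0, and their summed values were 489 and 181 in naive and 63.7 and 117 in injured knockout libraries, against 26.6 to 62.9 and 19.7 to 92.5 in wild type. Most of the sum came from Lyz2, a lysozyme gene, with 390 and 140 against 60.1 and 74.7. The others measured were C1qb, Tyrobp, Fcer1g, Cd68, Laptm5 and P2ry12. The microglia genes C1qa (0 and 1.22 against 0 and 0) and Csf1r (0 and 1.28 against 0.288 and 0) were picked after their values were seen. Both were too low to be among the 7, and their values do not show that microglia were absent. Vascular and meningeal markers, 7 in number, summed to 338 and 168 in naive and 114 and 98.6 in injured libraries, with 6 below 0. Oligodendrocyte lineage markers summed to 244 and 136 against 270 and 272, and 20 astrocyte markers had a median of 0.20 with 14 above 0 (wild type 0.93). The part of these cells in the interneuron result was not tested.

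Markers of cortical projection neurons, the excitatory majority, showed smaller differences. Of 23 measured, 0 passed, 16 lay below 0 and the median was −0.28 (wild type −0.40). As 42.6% of all genes described lay above 0, a majority below 0 is not particular to this list. Neurod6, a factor of excitatory neurons, had 212 and 188 against 271 and 203. Foxp2, of deep-layer neurons, was the lowest at −3.13, from 6.54 and 12.2 to 0.288 and 0. Foxp2 is counted only through its naive libraries, so its place in the list carries no weight. The count of 16 and the median include it. Pcp4 (ENSMUSG00000090223, chr16:96467606-96525793, plus strand), in cortex a gene of deep-layer neurons, had 211 and 289 in naive and 45.3 and 64.4 in injured neurites, a fall of −2.17 ± 0.33 (adjusted p = 0.0369), and −1.60 in wild type. Neurod6 was named after its values were seen.

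Other neuronal gene groups held few or no calls. For the sign counts, 42.6% of all genes described lay above 0. Among 31 presynaptic genes 0 passed and 27 lay below 0, with a median of −0.26, and Syt1, the calcium sensor of release, had 56.8 and 75.4 against 28.9 and 34.1. Among 26 glutamate receptor and postsynaptic genes the median was −0.45, and Camk2a, whose mRNA is carried into dendrites, had 83.9 and 95.2 against 23.8 and 29.7 (−1.71 ± 0.38, adjusted p = 0.252). Map2, which encodes a dendritic microtubule protein and whose mRNA is also dendritic, had 262 and 314 against 179 and 115 (−0.99 ± 0.23, adjusted p = 0.309). In these 3 genes both injured libraries lay below both naive ones. Kif1a, a motor of synaptic vesicle precursors, had 117 and 131 against 49.2 and 48.8 (−1.32 ± 0.26, adjusted p = 0.154), and −0.25 in wild type. Over 52 motor genes the median was −0.16.

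Growth cone and cytoskeleton genes other than tubulins had medians near that of all genes. These medians were −0.11 over 22 stathmin and growth cone genes, −0.10 over 16 neurofilament and microtubule-associated genes and −0.019 over 25 actin regulators. The median of 12 tubulins was lower at −0.25, with 10 below 0, 2 with an unadjusted p under 0.05, both lower, and 5 with near-identical copies. Tubulin values summed to 19351 and 17024 in naive and 15829 and 12061 in injured knockout libraries. Each of these 4 lists had 0 calls. Gap43, a growth cone membrane protein gene, had 1149 and 837 in naive and 974 and 682 in injured neurites, and Stmn2, a tubulin-binding protein gene, had 1286 and 1237 against 1208 and 954. Actb had 4437 and 3943 against 3970 and 3985. The groups overlapped for Gap43 and Actb and did not for Stmn2, and these 3 genes were named after their values were seen. Of 33 regeneration-associated genes 0 passed and the median was −0.13. Sox11, a regeneration factor named after its values were seen, had 66.0 and 57.4 against 73.5 and 66.0.

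**Figure D4:**
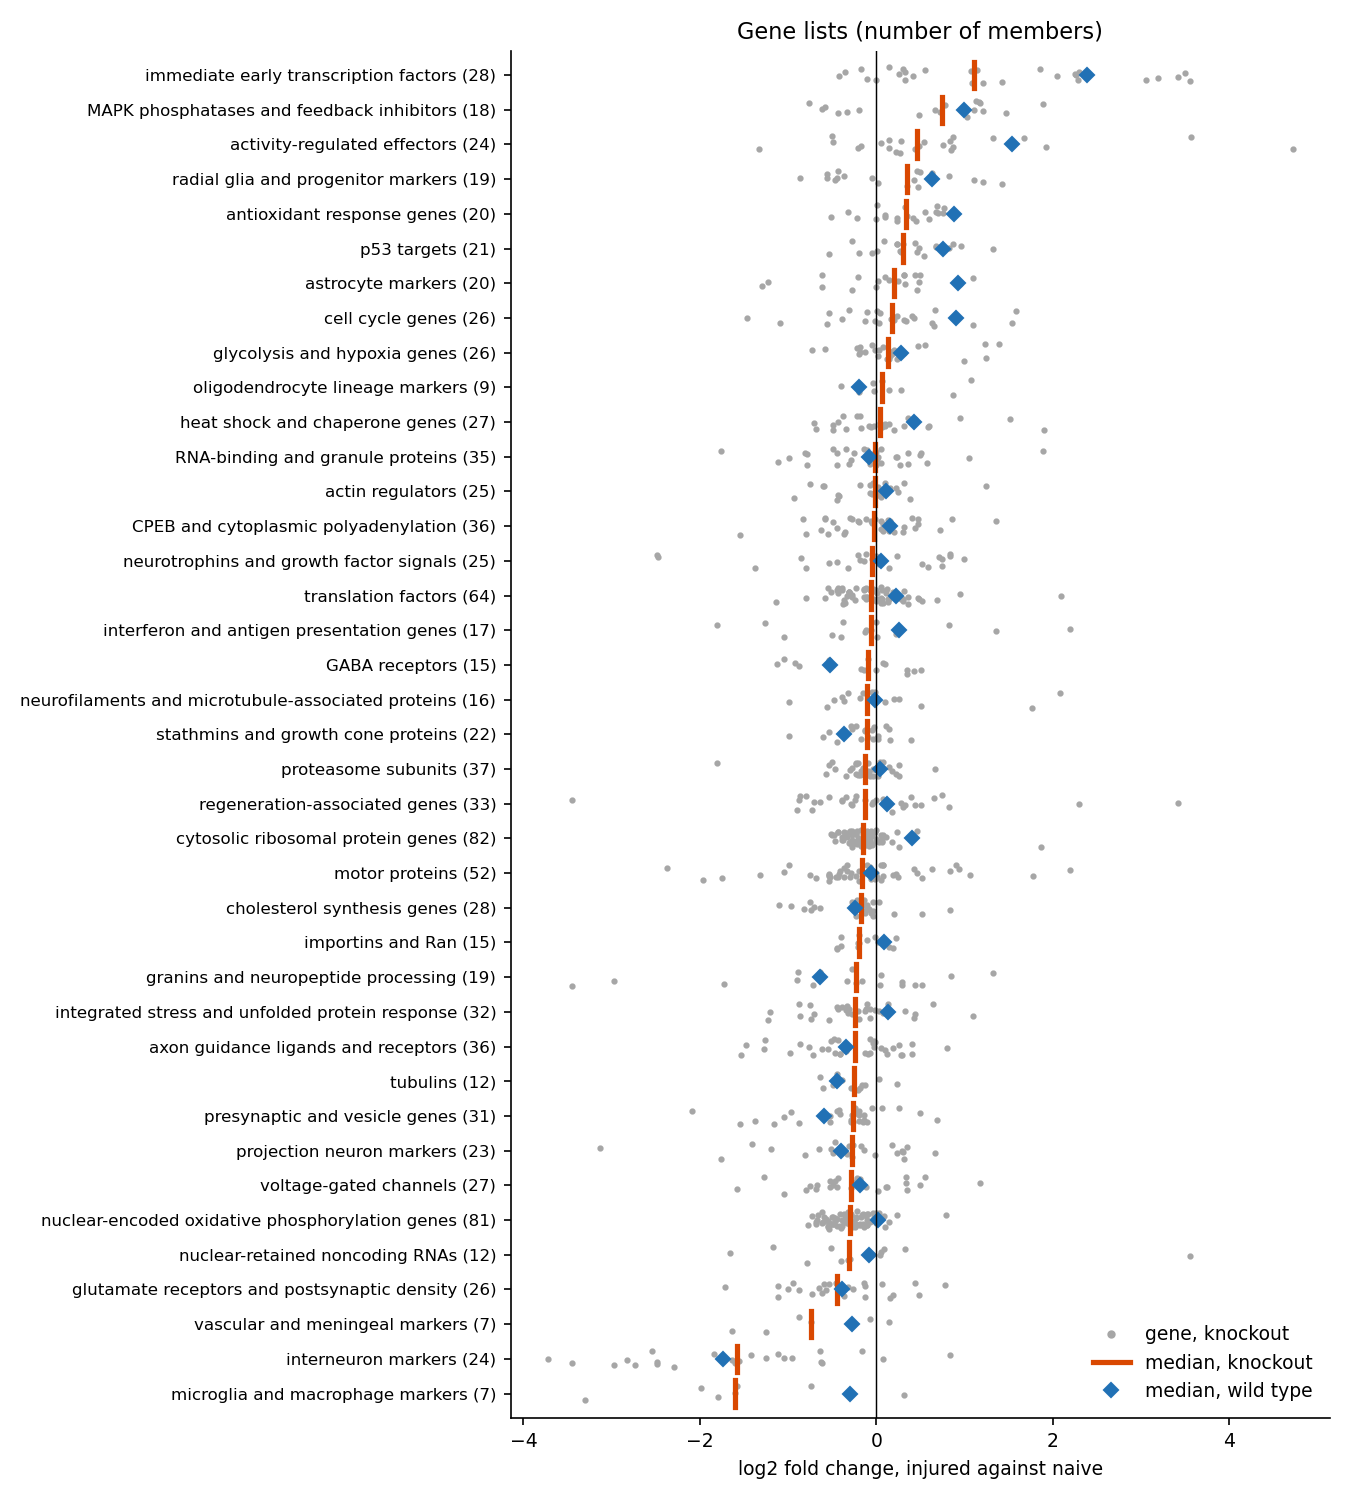
Log2 fold change of injury (horizontal axis) for the members of 39 gene lists, with grey points for single genes in knockout neurites, orange lines at the knockout median and blue diamonds at the wild-type median. Early gene lists lie highest and interneuron markers and microglia markers lowest in knockout neurites.

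Nuclear copies of mitochondrial sequence gave the most abundant called transcripts. Reads of mitochondrial mRNAs and of their nuclear copies cannot be told apart where the sequences match, and the table used here lists no mitochondrially encoded gene by name. All 14 such genes lay below 0 in knockout neurites, 13 with an unadjusted p under 0.05 and 3 called, with a median of −1.08 (wild type −0.32). Gm10925 had values of 17979 and 18357 in naive and 7452 and 6863 in injured neurites, a fall of −1.34 ± 0.18 (adjusted p = 0.0322). Gm28661, which has a near-identical copy in Gm13341, went from 9873 and 9677 to 3913 and 3318, and Gm11410 from 8695 and 8622 to 4287 and 3590. The 14 genes together held 9.21% and 10.8% of the column total in naive and 5.88% and 5.19% in injured knockout libraries, and 7.59% to 9.60% against 5.12% to 5.46% in wild type. Under quantile normalization the 3 called genes kept their sign at −0.40, −0.90 and −0.24 and did not pass.

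Nuclear genes for subunits of the respiratory chain lay below 0 in 75 of 81 cases, with a median of −0.30 (wild type 0.019). None passed, and 18 had an unadjusted p under 0.05 on the lower side (all genes 4.05%). Ndufa4, a subunit gene of the chain, had 1732 and 1663 in naive and 1095 and 1027 in injured neurites (−0.68 ± 0.19, adjusted p = 0.483), with no overlap, and −0.049 in wild type. Ndufa1, of complex I, had 887 and 698 against 482 and 439. Over the settings tried the median of the list ranged from −0.41 to −0.18. Cytosolic ribosomal protein genes had a median of −0.15 over 82 genes, 57 of them with near-identical copies, and 0.40 in wild type. Their interaction was negative in 80, against 56.4% of all genes described. The sum of their values was 76092 and 55519 in naive and 57627 and 56887 in injured knockout libraries, so that naive replicate 1 alone lay apart among these. In injured wild type it was 63872, 56635 and 89190, with replicate 3 apart. The knockout median turned positive in 2 of 24 settings, up to 0.060.

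Stress and repair groups had 0 calls in each. Over all genes described 42.6% lay above 0. Antioxidant genes had a median of 0.34 with 17 of 20 above 0 (wild type 0.88). Prdx6, a peroxide-removing enzyme gene, had 258 and 220 against 309 and 536, and Hmox1, which degrades heme and was named after its values were seen, had 16.0 and 15.4 against 22.1 and 26.9 (wild-type change 2.02). Targets of p53 had a median of 0.30, with 17 of 21 above 0. Genes of the integrated stress and unfolded protein response lay below 0 in 24 of 32 cases (median −0.24), with Asns, which makes asparagine, at 226 and 277 against 192 and 114. Heat shock and chaperone genes had a median of 0.038.

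Among the other genes with the largest knockout differences some had a smaller wild-type one. Tmem74, a gene linked to autophagy, had 1.68 and 1.38 in naive and 11.7 and 13.1 in injured knockout neurites (2.40 ± 0.52, adjusted p = 0.252). Its wild-type change was 0.55, from 8.80, 8.39 and 14.8 to 10.8, 20.5 and 16.9. Both naive knockout libraries thus lay below every naive wild-type one. Ddit4l, a relative of the mTOR inhibitor Ddit4, had 4.39 and 5.71 against 28.8 and 22.6 (2.14 ± 0.47, adjusted p = 0.252; wild type 1.19). Aftph, an adaptor in vesicle traffic, had 19.4 and 19.4 against 3.86 and 1.47 (−2.55 ± 0.51, adjusted p = 0.177; wild type 0.18). Usp9x, a deubiquitinase gene, had 67.5 and 64.3 against 25.3 and 20.1 (−1.50 ± 0.30, adjusted p = 0.177; wild type 0.14). In all 4 genes the knockout groups did not overlap, and in none did the interaction pass, with adjusted p-values of 0.661 to 0.824. Apart from Usp9x, these genes were named by size from the protein-coding genes at or above the median level with an unadjusted p under 0.01 and no overlap of the knockout groups, of which 30 were higher and 82 lower. Their lack of overlap was fixed by this choice, which also favours a smaller wild-type change, so neither is a finding. Usp9x was named by its interaction p, which favours such a difference as well.

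Tuba1c, a tubulin gene with near-identical copies in Tuba1a and Tuba1b, had 178 and 175 in naive and 132 and 156 in injured knockout neurites, while wild type went from 1.26, 1.49 and 0.689 to 7.81, 11.8 and 33.6. It thus differed between the genotypes already in naive neurites. Rogdi had 48.3 and 41.2 against 63.5 and 88.7 in knockout neurites and an interaction of 2.04 ± 0.42 (adjusted p = 0.529). Cdk9, the kinase of the elongation factor P-TEFb, had means of 25.8 ± 5.88 in naive and 9.43 ± 3.95 in injured neurites (SD, n = 2 each), with no overlap (log2 fold change −1.40 ± 0.38, adjusted p = 0.481; wild type 0.76). Rn7sk, the noncoding RNA that holds P-TEFb inactive, had 13.5 and 7.08 against 57.4 and 280 (3.56 ± 0.68, adjusted p = 0.132; wild type 4.67).

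**Figure D5:**
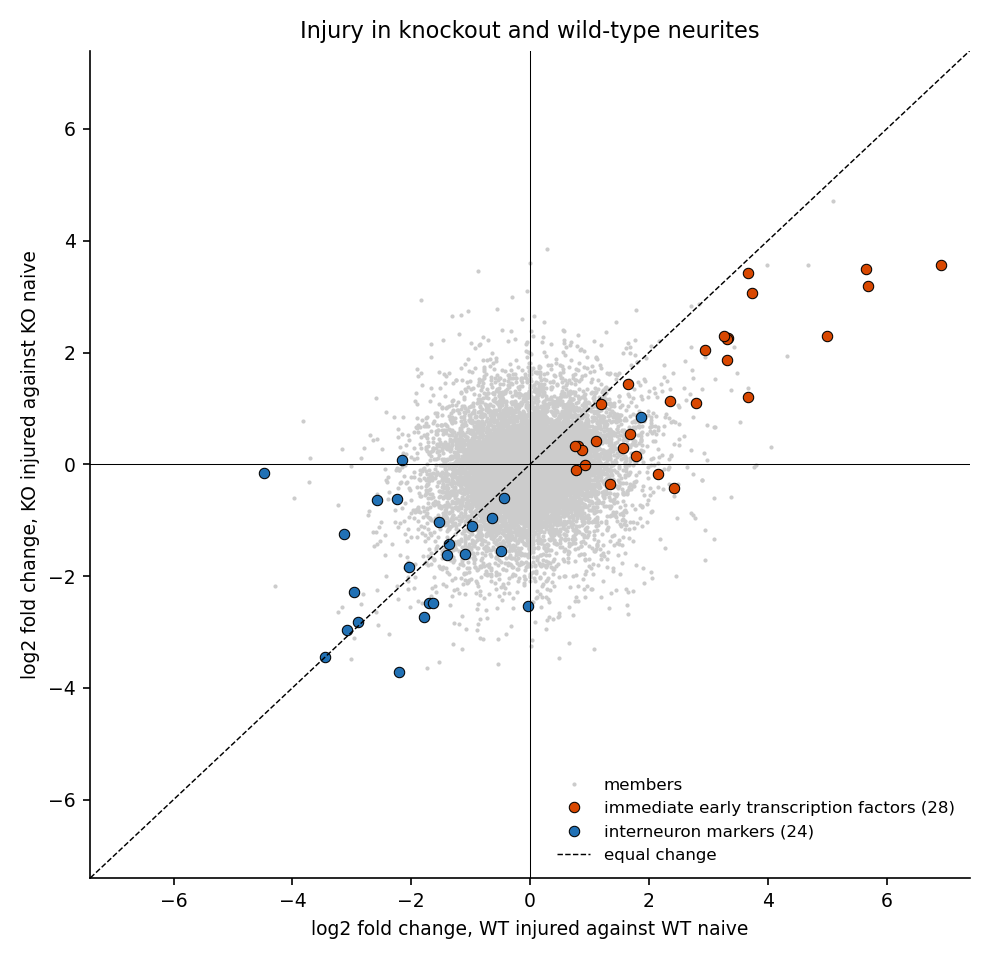
Log2 fold change of injury in knockout (vertical axis) against wild-type neurites (horizontal axis) for 13362 genes, with 28 immediate early transcription factors in orange, 24 interneuron markers in blue and a dashed line of equal change. The early genes all lie below the line, and the interneuron markers scatter around it.

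The response of knockout neurites was in part that of wild type. Across the 13362 genes the 2 sets of log2 fold changes, which share no library, correlated at 0.194 (Pearson), and at 0.287 over the 7844 genes at or above the median level; this is a description over genes, which are not replicates. Of the 149 genes called in wild type 138 were among those described, and 114 of them had the same sign in knockout neurites. The 100 higher ones had medians of 2.03 in wild type and 0.67 in knockout neurites, and the 38 lower ones −2.03 and −0.61. They were chosen by their wild-type values, so a smaller size in the other genotype is no finding. Of the 9 knockout calls 6 were also called in wild type (66.7%), which is 4.03% of the wild-type calls.

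The element that Cpeb1 recognises, TTTTAT or TTTTAAT in DNA letters, was in the longest annotated 3' untranslated region of 7619 genes described and absent from 4330. Their median log2 fold changes of injury in knockout neurites were −0.095 and −0.088. Split by length of that region, the medians with and without the element were −0.039 and −0.056 in the shortest group, −0.074 and −0.12 in the middle one and −0.13 and −0.22 in the longest. Of the called protein-coding genes Junb held 1 element, and Gadd45g, Nr4a1, Sst and Pcp4 held 0, while Fos held 3. To show the element in early genes with large fold changes, the site of Junb and the first of Fos are given with 10 bases on each side (GENCODE M21, mm10) and the element in capitals.
Junb, chr8:84976938-84976963, minus strand: gtgtttgactTTTTATtgaatctatt
Fos, chr12:85477085-85477110, plus strand: atgaaaacgtTTTTATtgtgttttca

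The other family members were low and did not pass. Cpeb2 had 2.38 and 3.40 in naive and 4.69 and 7.58 in injured knockout neurites (0.86 ± 0.73), with no overlap. Cpeb3 had 1.55 and 3.60 against 4.07 and 0.396, and Cpeb4 had 5.21 and 1.96 against 2.40 and 3.01, with overlapping groups in both. Over 36 genes of CPEB proteins and the polyadenylation and deadenylation machinery the median was −0.029, and 0 passed. Tob1, which recruits deadenylases, had 9.22 and 12.6 against 19.9 and 43.0 (1.36 ± 0.48, adjusted p = 0.740).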

How the data were processed

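RNA of 10 neurite libraries was made into cDNA with oligo(dT) priming and Smart-seq2 amplification, per the labels' protocols. Reads were aligned with STAR 2.4.2a and quantified with RSEM 1.2.21 on mm10, per the submitters' processing notes. The authors' deposited values are FPKM per gene. The values are whole multiples of 0.01 times 1 factor per library (tolerance 0.001, at least 99.9876% of values), which has the form of a scaling factor; no source used here states that step. Depth was estimated from the smallest steps of single-transcript genes and is approximate. Counts are not given, so no count test was run.

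From these values limma 3.58.1 (R 4.3.3) was fitted to log2(value + 1) in all 10 libraries with 4 group means, a mean-variance trend and Benjamini-Hochberg adjustment over the 15712 genes that reached 1 in 2 or more libraries. A fold change on this scale understates the change of low genes. The fit has 6 residual and 6.80 prior degrees of freedom. The interaction is the knockout injury effect minus the wild-type one.

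Named genes are Cpeb1 to Cpeb4, protein-coding calls, up to 12 genes in each direction by fold change (unadjusted p under 0.01, no overlap, mean at or above the median), 5 in each direction of the interaction and up to 4 of each list by smallest p; others are said to be chosen after their values were seen. The members and the 39 lists were chosen with earlier results of these data known. Transcripts were searched against each other with blastn 2.17.0 for near-identical copies (95% identity), gene types come from GENCODE M21 and promoters from RefSeq. Alternatives changed the pseudocount, filter, scaling, genes, variance model, block and libraries. Scaling by factor times column total and protein-coding genes without a copy were chosen after seeing the data.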

Additional observations from a re-analysis of the deposited data

How the results depend on the processing

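The counts of called genes depended on the settings. Against 4 higher and 5 lower, the higher count was 14 with no filter on low values, 1 without a mean-variance trend, 0 with the knockout libraries alone, 1 with a pseudocount of 0.1 and 2 with the replicate block. The lower count was 8 under scaling by factor times column total, 19 with no filter, 0 without a trend, 0 with the knockout libraries alone, 2 for protein-coding genes, 3 for those without a copy, 0 with a pseudocount of 0.1, 1 under quantile normalization, 1 with the replicate block and 10 with robust variances. Leaving out each library in turn gave 0 to 5 higher and 0 to 15 lower genes. The interaction count of 0 became 13 with no filter and 3 without a trend, and 0 to 2 when a library was left out. The cause was not tested. With 1 library left in a group, that library is assumed to vary like the other groups.

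Same-numbered knockout libraries deviated with a correlation of −0.0309 and wild-type ones with 0.0311, −0.00137 and 0.0199, which gave no sign of pairing by number. Independent noise in each library can hide a shared culture, and with 2 libraries a group the knockout deviations mirror each other. The values therefore cannot exclude pairing, and the libraries were treated as unpaired. The replicate block kept 2 of the 9 calls, Gadd45g and Sst.

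Of the single genes, Gadd45g was called in 18 of 24 settings, Sst in 13, Nr4a1 in 10, Pcp4 in 9 and Junb in 8, and none of these 5 changed direction. Cpeb1 turned to 0.0014 under scaling by factor times column total, 0.017 under median-ratio scaling, 0.27 with a pseudocount of 0.1 and 0.14 under quantile normalization, and ranged from −1.23 to 1.13 when a library was left out. Leaving out a library gave −1.29 to 0.56 for Cpeb3 and −0.75 to 0.32 for Cpeb4, so that both crossed 0. The precision of low genes is limited: the median standard error was 0.79 in the lowest of 5 equal groups of genes by level and 0.29 in the highest.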

Other observations

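The median log2 fold change of injury in knockout neurites, over 4 equal groups of protein-coding genes by transcript length from shortest to longest, was −0.075, −0.051, −0.11 and −0.14. Over 4 groups by GC content, from lowest to highest, it was −0.081, −0.098, −0.091 and −0.098. Ribosomal RNA-like transcripts CT010467.1 and AY036118 together held 16.9% and 12.6% of the column total in naive and 12.1% and 15.1% in injured knockout libraries, and 11.1% to 16.4% against 19.9% to 28.2% in wild type.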
